A study of Mus musculus with 9 samples.

Results

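Milk carries IgA, and the 3 genes described here make that antibody and carry it into milk: Igha, the constant region of the IgA heavy chain, Jchain (older symbol Igj), the joining chain that links IgA units into polymers, and Pigr, the polymeric immunoglobulin receptor. Every probe set whose annotated gene symbol, or older synonym, was one of these genes was taken. The array held 12488 probe sets, of which 5 carried a single symbol from this set (3 for Igha, 1 for Jchain and 1 for Pigr), and 2 more carried several symbols with Igha among them. After the 66 control probe sets were left out, 12422 remained, of which 9783 were tested, all 7 of these included.

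The RNA came from the whole inguinal (No. 4) mammary gland of wild type C57BL/6J females and was hybridised to 9 Affymetrix MG-U74Av2 arrays. Puberty was sampled in virgins 6 weeks old (n = 3), pregnancy on day 14 (n = 2), lactation on day 10 postpartum (n = 2) and involution 4 days after weaning (n = 2). No group carried a transgene, a deletion or a treatment, and whether the lymph node of the gland was removed is not given in the sources used here. Each array is described as a biological replicate, so p-values measure the spread between these few animals.

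IgA is secreted by plasma cells that settle in the stroma beside the mammary epithelium. The joining chain is built into polymeric IgA in those plasma cells, and it is the part that the receptor recognises. The receptor sits on the basal side of the secretory epithelial cell, takes up polymeric IgA, crosses the cell with it, and is cut at the apical side so that its outer part leaves in milk with the antibody as secretory component. Igha and Jchain are therefore made by one cell type and Pigr by another, and all 3 were read here from the same RNA. In such bulk tissue, fewer cells of a type and less RNA per cell cannot be told apart.

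The 250 bases before the annotated start of Pigr and Jchain are shown because the epithelial and the plasma cell gene followed different courses over the stages. The sequences are those of RefSeq on GRCm38.p6. Capitals mark CACGTG, an E-box, which is the kind of site that the factors Usf1 and Usf2 can bind.
Pigr, chr1:130826434-130826683, plus strand: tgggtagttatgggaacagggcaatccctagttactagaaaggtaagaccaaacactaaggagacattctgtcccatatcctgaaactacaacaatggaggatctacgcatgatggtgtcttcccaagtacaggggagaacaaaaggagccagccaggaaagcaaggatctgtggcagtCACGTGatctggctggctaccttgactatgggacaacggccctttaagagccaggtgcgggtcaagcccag
Jchain, chr5:88527898-88528147, minus strand: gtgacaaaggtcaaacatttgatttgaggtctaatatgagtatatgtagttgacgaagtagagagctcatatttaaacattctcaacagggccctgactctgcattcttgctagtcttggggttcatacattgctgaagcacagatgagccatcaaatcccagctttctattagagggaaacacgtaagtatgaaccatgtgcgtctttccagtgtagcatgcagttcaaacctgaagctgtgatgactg
Each was searched on both strands for 3 motifs: the E-box CACGTG, the TTCNNNGAA site that STAT factors can bind, and the octamer ATGCAAAT of immunoglobulin promoters. The Pigr promoter held the E-box, with 65 bases between it and the start, and neither of the others. The Jchain promoter held none of the 3. Among 32851 promoters of the same length, 6.02% held CACGTG, 7.02% held TTCNNNGAA and 1.6% held the octamer, so a match is a description of these letters and not a binding site. Igha, a constant region segment on chromosome 12, is named only.

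Signals are MAS5 intensities, linear fluorescence values per probe set, which were scaled here so that every array had the same median. The 3 genes did not follow one course. Pigr peaked at lactation and had dropped by 4 days after weaning. Igha rose at lactation and again at involution, and Jchain was called higher at involution than at each other stage, with no call among those others.

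**Figure D1:**
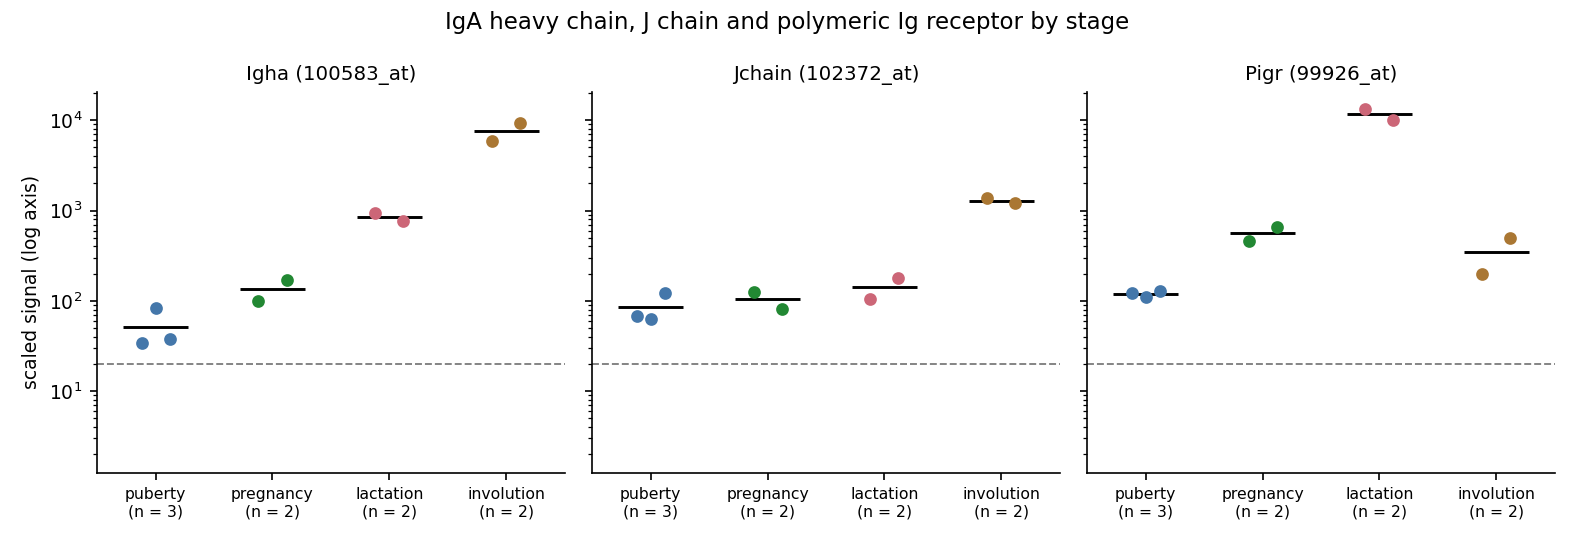
Scaled signal (log axis) of the probe set used for Igha, Jchain and Pigr in each of the 9 arrays (points), by stage, with the stage mean as a horizontal line and the floor of 20 dashed. Igha reached 5856 and 9319 at involution, Jchain 1364 and 1218 at involution, and Pigr 13244 and 10187 at lactation.

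Pigr gave scaled signals of 123, 110.5 and 127.6 at puberty, 463 and 652.8 at pregnancy, 13244.3 and 10186.7 at lactation, and 200 and 495.5 at involution. The lactation arrays stood above all 7 others, and the pregnancy arrays above all 3 puberty arrays. From puberty through involution the means and SDs were 120 ± 8.81 (n = 3), 558 ± 134 (n = 2), 11716 ± 2162 (n = 2) and 348 ± 209 (n = 2). A moderated F test over the 4 stages, fitted with limma to all tested probe sets with Benjamini-Hochberg adjustment, gave an adjusted p of 1.86e-05. That test called 51.6% of all tested probe sets, so a call alone does not set a gene apart in these arrays.

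Pigr was 21.1-fold higher at lactation than at pregnancy (log2 difference 4.40, SE 0.37, limma adjusted p = 7.58e-05), a contrast in which 41.2% of tested probe sets were called and 21.6% were called higher. Against puberty, lactation was 96.7-fold higher (log2 6.60, SE 0.34, limma adjusted p = 3.38e-06), beside 47.8% of probe sets called and 26.1% called higher. Pigr had risen in part by day 14 of pregnancy, 4.58-fold over puberty (log2 2.19, SE 0.34, limma adjusted p = 0.00527), where 11.4% of probe sets were called and 6.2% called higher. Without pregnancy replicate 2 that adjusted p became 0.0865, on a log2 difference of 1.95.

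After weaning the receptor fell by 5.21 on the log2 scale (SE 0.37, limma adjusted p = 2.34e-05), which is 36.9-fold lower at involution than at lactation, beside 45.1% of probe sets called and 23% called lower. The 2 involution arrays themselves differed, at 200 and 495.5, and they overlapped the pregnancy arrays. The difference from pregnancy was -0.80 (SE 0.37, limma adjusted p = 0.246, 7.12% of probe sets called), and it reached an adjusted p of 0.0403 without involution replicate 2, the array with the higher Pigr signal. Against puberty, involution was 2.62-fold higher (log2 1.39, SE 0.34, limma adjusted p = 0.0423), where 7.48% of probe sets were called, 4.39% higher and 3.1% lower. Of those calls 58.6% were higher, or 46.5% with the values as deposited. That last call was lost when any 1 of 8 of the 9 arrays was left out, with involution replicate 1 as the exception, and over the 9 fits the log2 difference ran between 0.73 and 2.04. The order of the Pigr levels was thus lactation, then pregnancy and involution without a call between them, then puberty.

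Igha, read by probe set 100583_at, gave 33.9, 82.8 and 37.7 at puberty, 98.9 and 168.4 at pregnancy, 942.1 and 770.4 at lactation, and 5856.4 and 9318.6 at involution. No 2 stages overlapped, and the means went up at each step. The stage means and SDs were 51.5 ± 27.2 (n = 3), 134 ± 49.2 (n = 2), 856 ± 121 (n = 2) and 7588 ± 2448 (n = 2) from puberty through involution, and the limma F test gave an adjusted p of 2.07e-05.

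The Igha signal was 6.60-fold higher at lactation than at pregnancy (log2 2.72, SE 0.44, limma adjusted p = 0.00164). It was 8.67-fold higher at involution than at lactation (log2 3.12, SE 0.44, limma adjusted p = 0.000681), a contrast in which 22.1% of all tested probe sets were called higher. Over the whole course, involution stood 156-fold above puberty (log2 7.29, SE 0.40, limma adjusted p = 6e-05). The first step, pregnancy over puberty, had a log2 difference of 1.45 (SE 0.40) and did not pass (limma adjusted p = 0.0523), although the 2 pregnancy arrays lay above the 3 puberty arrays. Puberty replicate 2, at 82.8, was the highest of its stage, and without it the adjusted p was 0.013.

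Jchain gave 68.6, 63.5 and 123 at puberty, 125.6 and 81.7 at pregnancy, 104.3 and 177.1 at lactation, and 1363.8 and 1218.1 at involution. The 7 arrays before weaning overlapped one another, and both involution arrays stood far above them. Means and SDs were 85.0 ± 33.0 (n = 3), 104 ± 31.0 (n = 2), 141 ± 51.5 (n = 2) and 1291 ± 103 (n = 2) in the order of the stages (limma F test, adjusted p = 0.000163).

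At involution, Jchain was 9.48-fold higher than at lactation (log2 3.25, SE 0.37, limma adjusted p = 0.000241), 12.7-fold higher than at pregnancy (log2 3.67, SE 0.37, limma adjusted p = 0.00125) and 15.9-fold higher than at puberty (log2 3.99, SE 0.34, limma adjusted p = 0.000446). Lactation differed from pregnancy by 0.42 (SE 0.37, limma adjusted p = 0.393) and from puberty by 0.74 (SE 0.34, limma adjusted p = 0.105). The comparison with puberty passed without puberty replicate 3, whose signal of 123 was the highest of its stage (log2 1.04, limma adjusted p = 0.0244).

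**Figure D2:**
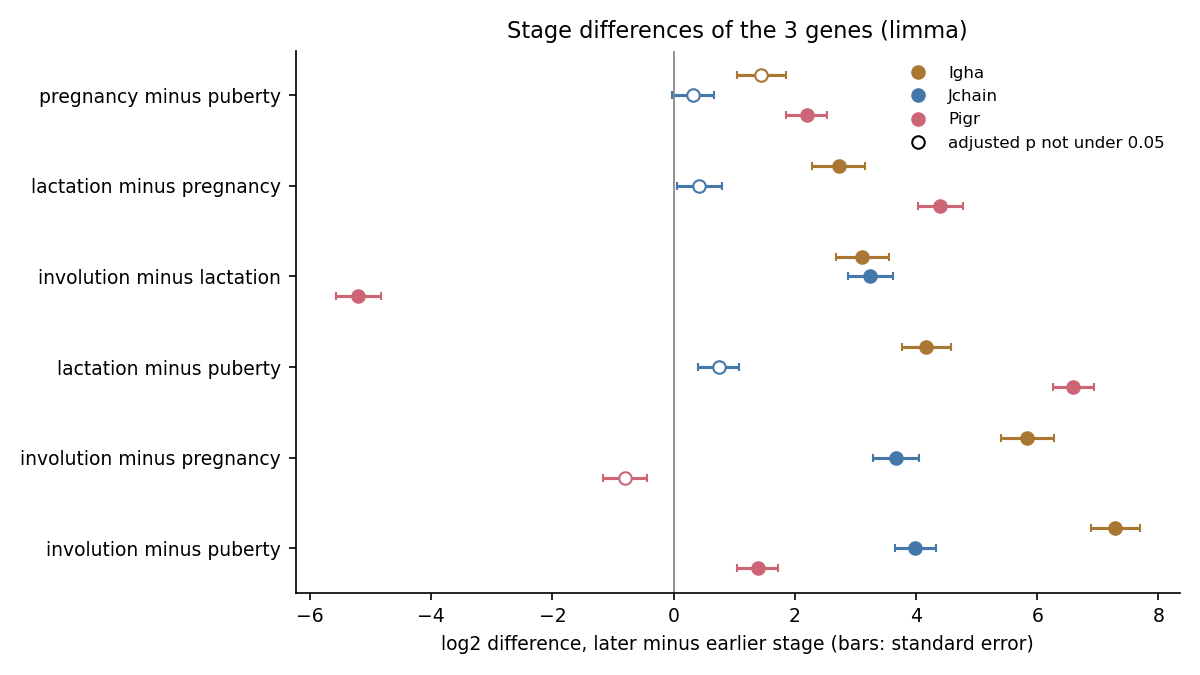
Log2 difference of the later minus the earlier stage for the probe set used for Igha, Jchain and Pigr in the 6 contrasts, with bars of 1 standard error and open symbols where the limma adjusted p was not under 0.05. At involution against lactation Igha (3.12) and Jchain (3.25) lie to the right of 0 and Pigr (-5.21) to the left.

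Whether 2 genes changed unequally was asked within each array, as the log2 signal of one minus that of the other, by an exact permutation test of the F statistic over all 7560 assignments of the arrays to the stages (upper tail). There were 10 pairs of probe sets, and p-values were adjusted over them; the smallest p these assignments allow is 0.000794. The difference of Igha 100583_at and Pigr, centred on its mean over the arrays, averaged -0.61 at puberty, -1.35 at pregnancy, -3.03 at lactation and 5.29 at involution (exact permutation test, adjusted p = 0.00635). The difference of Jchain and Pigr averaged 1.14 at puberty, -0.74 at pregnancy, -4.71 at lactation and 3.74 at involution (exact permutation test, adjusted p = 0.00397, at the smallest p allowed). The balance between the antibody genes and the receptor thus tilted to the receptor at lactation and to both antibody genes at involution, in both arrays of each stage.

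The 2 antibody genes also parted when Igha was read by 100583_at. The centred difference of Igha 100583_at and Jchain averaged -1.75 at puberty, -0.62 at pregnancy, 1.68 at lactation and 1.55 at involution (exact permutation test, adjusted p = 0.0408). Igha had risen by lactation and Jchain had no call there, while both rose at involution. Of these 3 pairs this call was the least stable, since leaving out any array but puberty replicate 2 raised its adjusted p above the threshold (range over the 9 fits 0.0317 to 0.0952). With Igha read by 161486_f_at, a probe set described below, no parting from Jchain was called (exact permutation test, adjusted p = 0.501). The centred difference of Jchain and 161486_f_at averaged -0.217 at puberty, 0.101 at pregnancy, -0.295 at lactation and 0.519 at involution. All puberty and pregnancy signals of 161486_f_at lay under the floor. Its rise by lactation thus has only a bound, and this test cannot decide whether the genes parted.

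**Figure D3:**
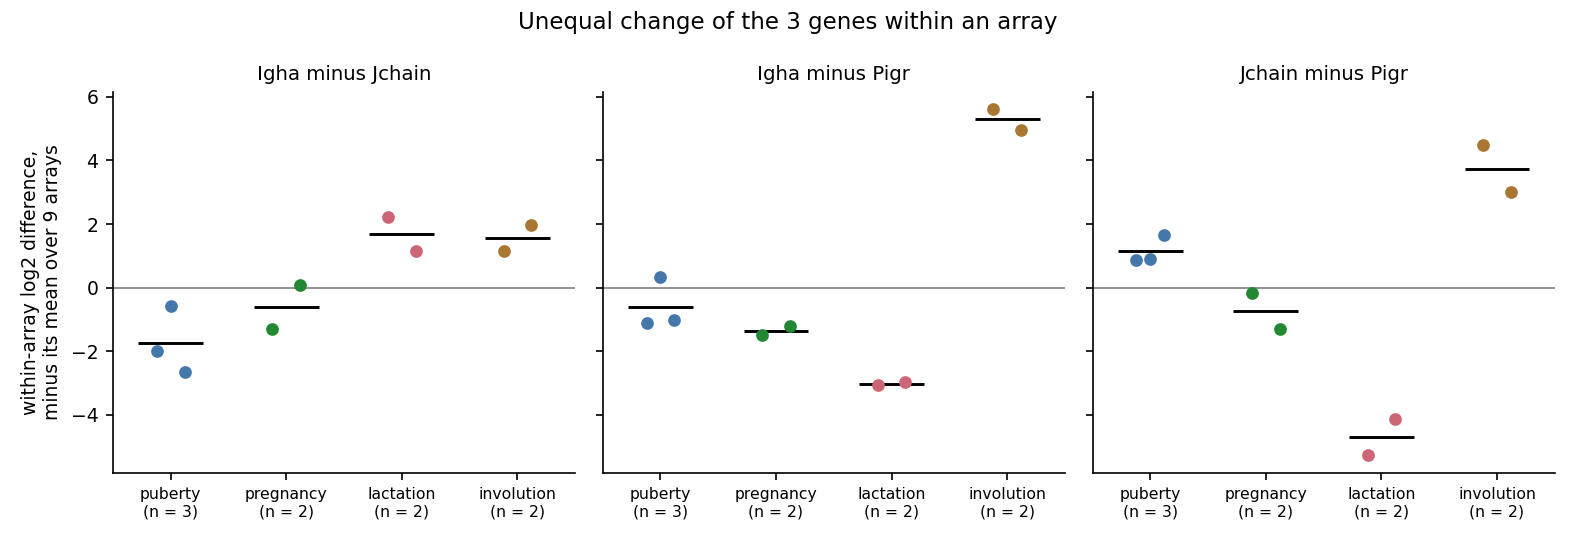
Log2 signal of one gene minus that of another within each array, centred on the mean over the 9 arrays, by stage (points are arrays, horizontal lines are stage means). Igha minus Pigr and Jchain minus Pigr lie lowest at lactation, with means of -3.03 and -4.71, and highest at involution, with means of 5.29 and 3.74.

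The 3 Igha probe sets did not carry the same signal. The name of 100583_at rests on the platform annotation: it was designed from the same sequence record as probe sets named for a heavy chain variable segment, whose values are given with the other observations, and probe sequences were not used here. Names ending in _f_at mark probe sets whose probes match several sequences of a family, so RNA from related heavy chain genes can reach them. Probe set 161486_f_at gave 8.1, 9.9 and 2.9 at puberty, 2.6 and 17.4 at pregnancy, 40.3 and 31 at lactation, and 167.8 and 216.4 at involution. All 5 arrays of puberty and pregnancy lay under the floor of 20, the signal below which all values were set to 20 before the log, so these stages have only a bound.

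For 161486_f_at, involution was 5.40-fold higher than lactation (log2 2.43, SE 0.22, limma adjusted p = 8.5e-05). It was at least 9.53-fold higher at involution than at puberty or pregnancy (limma adjusted p = 8.69e-05 against puberty and 0.000152 against pregnancy), and lactation was at least 1.77-fold higher than both (limma adjusted p = 0.00996 against puberty and 0.018 against pregnancy). The call of lactation against pregnancy was lost without either pregnancy array, and a floor of 50 left no difference between lactation and the earlier stages. The direction over the 4 stages was that of 100583_at, with a smaller span above the floor (exact permutation test of the difference within arrays, adjusted p = 0.00635, n = 2 or 3 arrays a stage). That test was lost with no floor, at an adjusted p of 0.112.

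Probe set 97009_f_at stayed near the floor, with 20.6, 7 and 12.6 at puberty, 8.1 and 8.1 at pregnancy, 19.4 and 33.4 at lactation, and 47.4 and 3.7 at involution. Its 2 involution arrays were the highest and among the lowest of all 9, and 6 arrays were under the floor. It passed neither the F test (limma adjusted p = 0.363) nor any of the 6 contrasts, and its F test had an adjusted p of 0.0327 without involution replicate 2.

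Both probe sets with several symbols also departed from 100583_at. Probe set 99421_at, annotated to Ighv14-2, Ighg3, Igha and Ighm, gave 190.5, 179.6 and 218.2 at puberty, 151.3 and 125.1 at pregnancy, 353 and 360.2 at lactation, and 175.6 and 180.8 at involution. It was highest at lactation, 1.37 above pregnancy on the log2 scale (SE 0.16, limma adjusted p = 0.00037), and lower at involution than at lactation (limma adjusted p = 0.0014). Probe set 97575_f_at, annotated to Ighg3, Igha and Ighm, gave 39.3, 31.5 and 22.8 at puberty, 11.5 and 19.6 at pregnancy, 61.5 and 53.2 at lactation, and 82.5 and 34.8 at involution. Its F test had an adjusted p of 0.0298 by limma, which left-out arrays moved between 0.00762 and 0.142. Which gene's RNA these 2 read cannot be told apart.

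**Figure D4:**
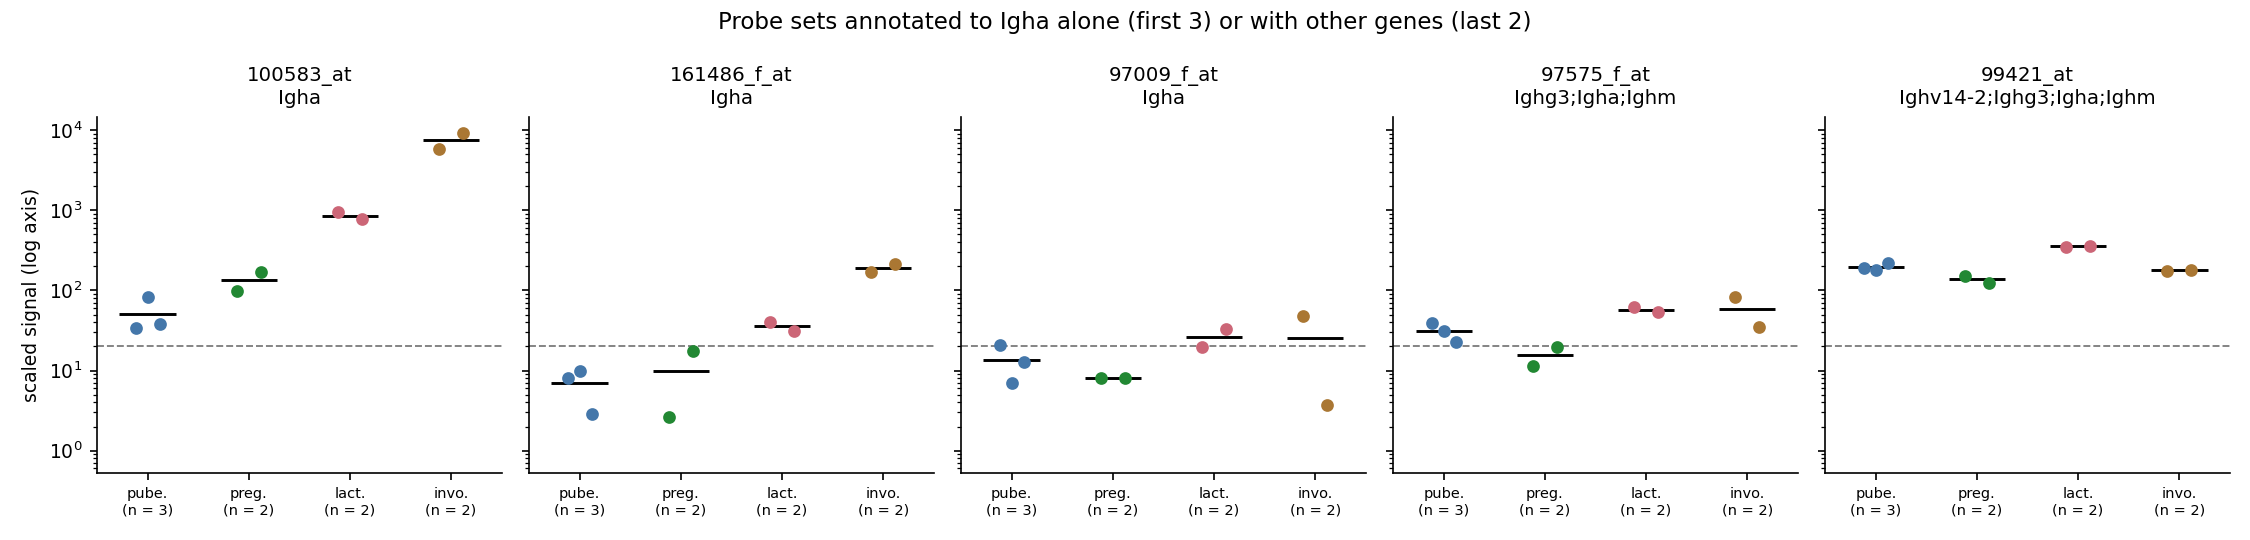
Scaled signal (log axis) in each array of the 3 probe sets with Igha as their single symbol and of the 2 with several symbols, by stage, with the floor of 20 as a dashed line. Probe sets 100583_at and 161486_f_at are highest at involution, 99421_at is highest at lactation, and 97009_f_at stays between 3.7 and 47.4.

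The profiles most like each gene were found by the Pearson correlation of log2 signals over the 9 arrays among 8735 tested probe sets with a single symbol. These arrays share their stages, so r describes likeness over 4 stages and carries no test. Nearest to Igha was probe set 99420_at, annotated to Ighm, the constant region of the IgM heavy chain (r = 0.988), with 8, 17.4 and 10.7 at puberty, 63.8 and 61.6 at pregnancy, 498.4 and 527.6 at lactation, and 3813.6 and 4074.1 at involution. It was followed by Gzma, a granule protease of cytotoxic lymphocytes (r = 0.962), Cp, the copper carrier ceruloplasmin (r = 0.959), Mmp12, the macrophage elastase (r = 0.955), and Tle1, a transcriptional corepressor (r = 0.953). In all, 25 profiles had an r above 0.9 with Igha. The name of 99420_at also rests on the annotation, and other Ighm probe sets did not all share its rise at lactation over puberty. There 93583_s_at and 93584_at were lower (log2 -1.12 and -4.06, limma adjusted p = 0.012 and 5.36e-05), and 101745_f_at was higher (log2 1.09, limma adjusted p = 0.00266).

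Nearest to Jchain were Ergic1, a protein of the compartment between the endoplasmic reticulum and the Golgi (r = 0.988), Slpi, a secreted protease inhibitor (r = 0.965), Msr1, a scavenger receptor of macrophages (r = 0.963), Prdm1, the factor that drives B cells to become plasma cells (r = 0.962), and Cd5l, a secreted macrophage protein (r = 0.962). Ergic1 averaged 150 at puberty, 154 at pregnancy, 157 at lactation and 227 at involution, so it matched the shape of Jchain over a far smaller span. Prdm1 was at or under the floor in all arrays of the first 3 stages but puberty replicate 3, at 20.1, and gave 28.1 and 27.1 at involution. Msr1 and Cd5l were also near the floor. Over the first 3 stages Msr1 gave 3.6 to 20.2 and Cd5l 2.9 to 25.5. At involution Msr1 gave 30.4 and 30.2, and Cd5l 39.6 and 40.9. A total of 43 profiles had an r above 0.9 with Jchain.

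Nearest to Pigr were Prdx4, a peroxiredoxin of the secretory pathway (r = 0.996), Cmtm8, a membrane protein (r = 0.995), Pdcd6, a calcium-binding protein (r = 0.990), Cytip, a cytohesin-interacting protein (r = 0.990), and Xdh, xanthine oxidoreductase of the milk fat globule (r = 0.990). Prdx4 averaged 131 at puberty, 394 at pregnancy, 3729 at lactation and 260 at involution. Here 665 profiles had an r above 0.9, against 25 for Igha and 43 for Jchain.

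**Figure D5:**
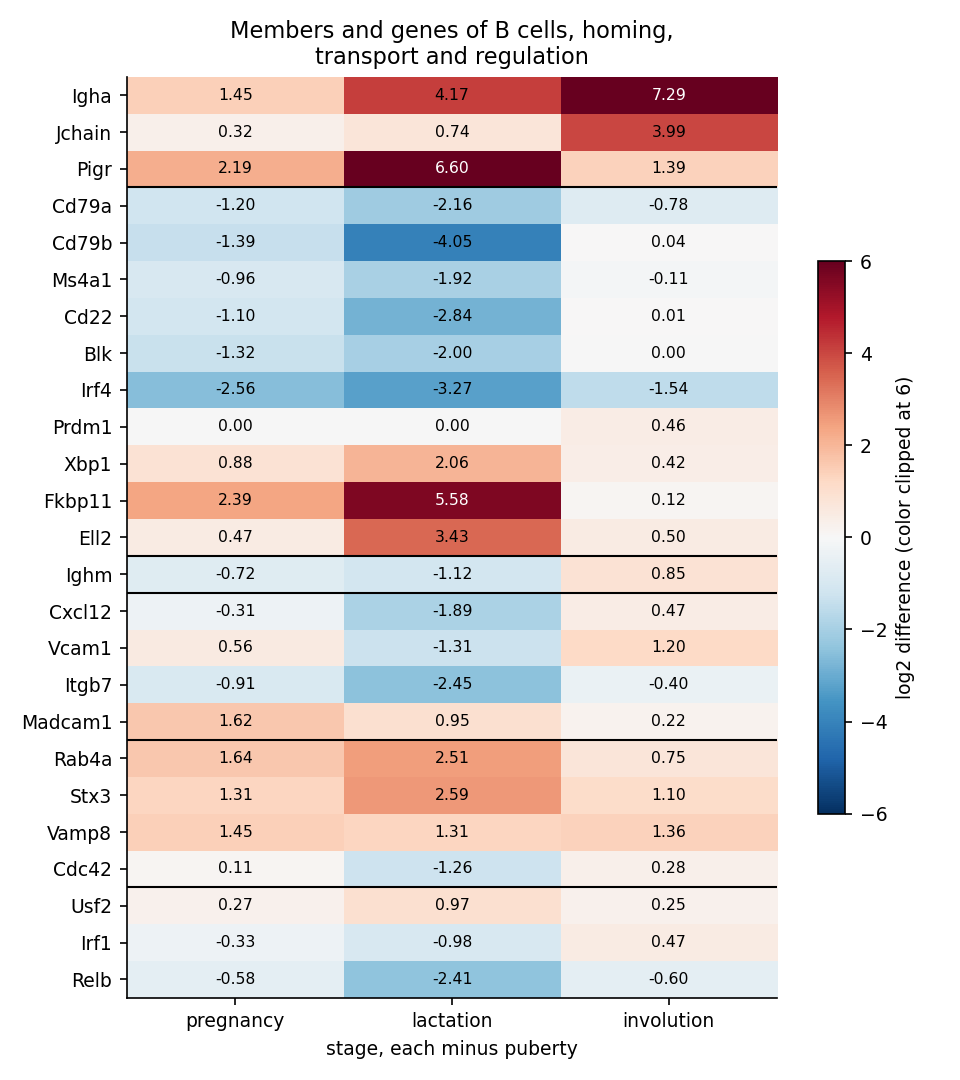
Log2 difference of pregnancy, lactation and involution, each minus puberty (columns), for Igha, Jchain, Pigr and genes of the lists on B cells, other immunoglobulins, homing, transcytosis and receptor regulation (rows, Ighm by another probe set than the one nearest to Igha); red is higher and blue lower than at puberty. At lactation against puberty Cd79b stands at -4.05 and Fkbp11 at 5.58.

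Genes of B cells and plasma cells moved with Igha only in part. Of the 20 tested genes of that list, 12 were called higher and 3 lower at involution than at lactation (22.1% and 23% of all tested probe sets), with a median log2 difference of 1.04 against -0.03 over all tested probe sets. The count of 12 was 7 without involution replicate 1 and 7 with a floor of 50. At lactation against puberty, 12 were lower and 3 higher (21.8% and 26.1% of all probe sets; median -1.45, against 0.09 over all), and at involution against puberty 1 was higher and 2 lower (median -0.21), counts that became 0 or 1 higher and 1 or 2 lower when single arrays were left out. Over all tested probe sets, 4.39% were higher and 3.1% lower at involution than at puberty. With all arrays, the 1 higher gene was Prdm1, at 28.1 and 27.1 against 8.3, 12.1 and 20.1 at puberty, near the floor (log2 0.46, limma adjusted p = 0.0397). Igha itself was 18.0-fold higher at lactation than at puberty (log2 4.17, limma adjusted p = 7.68e-05).

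Cd79b, a chain of the B cell receptor complex that was chosen after its values were seen, gave 623.2, 628.9 and 581.1 at puberty, 287.9 and 187.4 at pregnancy, 14.5 and 67.6 at lactation, and 685.6 and 576.2 at involution. It was lower at lactation than at puberty (log2 difference -4.05, limma adjusted p = 0.000124) and differed by 0.04 at involution (limma adjusted p = 1). Cd22, an inhibitory receptor of B cells, had the same course, with means of 143 at puberty, 67.0 at pregnancy and 145 at involution, and 15.2 and 8.9 in the lactation arrays. Irf4, a factor of plasma cell differentiation, averaged 256, 42.7, 26.4 and 87.4 in the order of the stages, and its involution arrays lay below its puberty arrays (log2 -1.54, limma adjusted p = 0.00539).

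The 3 list members that rose at lactation were Fkbp11, Ell2 and Xbp1, and which cells their RNA came from was not tested. Fkbp11, a folding enzyme of the endoplasmic reticulum, averaged 60.7 at puberty, 306 at pregnancy, 2797 at lactation and 63.6 at involution. Ell2, an elongation factor used in antibody secretion, averaged 138, 192, 1495 and 196 in the same order. Xbp1, a factor of the unfolded protein response chosen after its values were seen, averaged 482, 892, 1989 and 644. With these 3 included, the summed signal of the list was 4127 to 4445 at puberty, 3051 and 2997 at pregnancy, 7015 and 7356 at lactation, and 3825 and 3609 at involution. Without these 3, a split made after values were seen, the other 17 genes summed to 3382 to 3714 at puberty, 1842 and 1428 at pregnancy, 696 and 1112 at lactation, and 2986 and 2640 at involution. The part of either sum in the Igha course was not tested.

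Of 17 listed genes that guide IgA plasma cells to tissues, 13 had a probe set with that symbol alone and were tested. Ccl28 and Ccr10 were not among them. Of the 13, 8 were lower and 1 higher at lactation than at puberty (5 lower with a floor of 50), against 21.8% and 26.1% of all tested probe sets. The higher one was Ccr9, a chemokine receptor, at 45.9 and 45.7 against 10.1 to 23.1 at puberty (log2 1.125, limma adjusted p = 0.000255). At involution against lactation, 7 were higher and 1 lower, against 22.1% and 23%. Without lactation replicate 1, the single higher gene and the single lower gene became 2. Cxcl12, a chemokine that holds plasma cells in their niche, gave 257.6 and 250.5 in the 2 involution arrays, against 47.3 and 52.1 in the lactation arrays (log2 2.35, limma adjusted p = 2.18e-05). Vcam1, an adhesion molecule of endothelium chosen after its values were seen, gave 277.3 and 219.6 at involution, against 37.2 and 50.1 at lactation (log2 2.51, limma adjusted p = 0.000118). Itgb7, the integrin chain by which gut-type lymphocytes bind Madcam1, gave 351.7 and 215.3 at involution, against 73.1 and 60.7 at lactation (log2 2.05, limma adjusted p = 0.000263).

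Madcam1, the vascular addressin that Itgb7 binds and likewise chosen after its values were seen, gave 59, 49.7 and 23.8 at puberty, 103.8 and 154 at pregnancy, 100.8 and 62.5 at lactation, and 37.8 and 61 at involution. Its one call was at pregnancy over puberty (log2 1.62, limma adjusted p = 0.0471), and that call was lost when any array but puberty replicate 1 was left out. Selplg, the selectin ligand of leukocytes, and Cxcl13, a chemokine for B cells, were both lower at lactation than at puberty, by log2 differences of -1.70 and -2.50 (limma adjusted p = 4.48e-05 and 3.78e-05). The value for Cxcl13 is a bound, since both its lactation arrays were under the floor.

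Genes of transcytosis and apical traffic, the route Pigr takes through the cell, moved in both directions. Of 31 tested, 12 were called higher and 4 lower at lactation than at pregnancy (median 0.33, against 21.6% and 19.7% of all probe sets). Between lactation and involution, 5 were higher and 14 lower at involution (median -0.52, against 22.1% and 23% of all probe sets). At lactation against pregnancy, 6 were higher and 1 lower without pregnancy replicate 1, 7 were higher without lactation replicate 2, and 2 were lower without pregnancy replicate 2 or without lactation replicate 1. At involution against lactation, 3 were higher without puberty replicate 2. Rab4a, a small GTPase of endosome recycling, averaged 96.3 at puberty, 300 at pregnancy, 548 at lactation and 166 at involution. Stx3, the syntaxin of the apical membrane, averaged 27.9, 69.4, 166 and 59.1 in the same order.

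Vamp8, a vesicle fusion protein, kept its rise after weaning, with means of 512, 1391, 1268 and 1333, and Cdc42, a GTPase of cell polarity, was lower at lactation than at pregnancy (log2 -1.37, limma adjusted p = 0.000162).

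Of 23 tested genes for cytokine, interferon and hormone signals known to act on Pigr, 3 were higher and 8 lower at lactation than at pregnancy, against 21.6% and 19.7% of all probe sets. At involution against lactation, 8 were higher and 4 lower, against 22.1% and 23%. The first pair of counts was 1 and 2 without pregnancy replicate 1, 1 and 5 without pregnancy replicate 2 or without lactation replicate 1, and 5 were higher without either involution array. Irf1, the interferon-induced factor that raises PIGR in human epithelial lines, gave 134.6 and 168 at lactation, against 234.6 and 238.6 at pregnancy (log2 -0.65, limma adjusted p = 0.0179). Tnfrsf1a, a receptor of tumour necrosis factor, and Il1r1, the interleukin 1 receptor, were also lower at lactation than at pregnancy, by -0.98 and -0.80 (limma adjusted p = 0.00469 and 0.041).

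Usf2, a factor that can bind sites of the E-box kind, had the opposite direction, with 381.4 and 339 at lactation, against 224 and 219.4 at pregnancy (log2 0.70, limma adjusted p = 0.00642). Its log2 difference was -0.72 at involution against lactation (limma adjusted p = 0.00497). Usf1, the partner of Usf2 chosen after its values were seen, had a log2 difference of 0.49 at lactation against pregnancy that did not pass (limma adjusted p = 0.189). Whether either factor binds the Pigr promoter or acts on Pigr here was not tested.

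Among factors of IgA class switching and plasma cell survival, 5 of 11 tested were higher and 1 lower at involution than at lactation, against 22.1% and 23% of all probe sets (3 and 2 without lactation replicate 1, and 3 lower without lactation replicate 2). Il6st, the signalling chain for interleukin 6, gave 469.2 and 622.4 at involution, against 120.1 and 153.2 at lactation (log2 1.99, limma adjusted p = 8.5e-05). Tgfb1, the cytokine that directs switching to IgA, gave 61.4 and 85.9 at involution, against 14.1 and 28.7 at lactation (log2 1.60, limma adjusted p = 0.00799), both below puberty, where it gave 164.9 to 254.7. Smad4, which carries the signal of that cytokine, was 1.74 higher at involution than at lactation (limma adjusted p = 0.000639). Il10ra, the interleukin 10 receptor, was at least 1.56 higher, with both lactation arrays under the floor (limma adjusted p = 0.00166).

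The tissue was read against its own markers. All 14 luminal epithelial genes of the list were tested, and the keratins Krt8 and Krt18 were above the floor in every array, with Krt18 between 213.4 and 1180.8. Pigr rose at lactation without a rise of this list as a whole. At lactation against pregnancy, 1 luminal gene was higher and 6 lower, against 21.6% and 19.7% of all probe sets (3 lower when any single pregnancy or lactation array was left out, and 3 and 2 higher without lactation replicate 1 and 2), and the summed signal was 6035 and 5322, against 6472 and 7431. At puberty the sum was 2549 to 4088, and at involution 3879 and 5643, where involution replicate 2, the array with more Pigr, also had more of the luminal markers. The single higher gene was Elf5, and the 6 lower ones were the keratins Krt7, Krt8, Krt18 and Krt19 and the tight junction claudins Cldn3 and Cldn4. Krt18 gave 220.4 and 213.4 at lactation, against 951 and 1180.8 at pregnancy (log2 -2.29, limma adjusted p = 0.000537). Krt7 gave 11.4 and 16 at lactation, both under the floor, against 63.1 and 67.5 at pregnancy (log2 -1.71, a bound, limma adjusted p = 0.00125). Elf5, the factor of the secretory alveolar lineage, averaged 39.2 at puberty, 1155 at pregnancy, 3008 at lactation and 533 at involution, against 120, 558, 11716 and 348 for Pigr.

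Several cell types differed between stages besides. Of 10 T cell genes, 9 were lower at lactation than at puberty and 9 higher at involution than at lactation (5 with a floor of 50), against 21.8% and 22.1% of all probe sets. Of 9 macrophage genes, 7 were higher at involution than at lactation (22.1% of all), and 5 were higher than at puberty (4.39% of all; 3 without puberty replicate 1, and 3 without either involution array). Their summed signal was 5710 and 7206 at involution, against 1486 and 2485 at lactation and 2495 to 3091 at puberty. Of 6 adipocyte genes, 5 were lower at lactation than at puberty and 6 higher at involution than at lactation, against 21.8% and 22.1% of all probe sets. The adipocyte list summed to 9309 to 12257 at puberty, 8458 and 5778 at pregnancy, 1896 and 2320 at lactation, and 10591 and 12520 at involution. Of 8 endothelial genes, 6 were lower and 1 higher at lactation than at puberty, against 21.8% and 26.1% of all probe sets. At involution against lactation, 6 endothelial genes were higher and 1 lower, against 22.1% and 23%. The skeletal muscle list summed to 9614 to 23991 at puberty and 185 to 1223 in all later arrays, so every contrast with puberty was also a contrast in muscle RNA. The part of these shifts in the Igha, Jchain and Pigr values was not tested.

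Array medians are set by the scaling, and depth in the sense of read counts does not apply. The precision was limited by the 9 arrays. Arrays of one stage correlated at r of 0.947 to 0.975 over all probe sets, against 0.724 to 0.935 between stages, and no array stood apart from its stage.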

How the data were processed

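Total RNA of 9 glands was hybridised to 1 array each. The deposited values were signal intensities, 1 per probe set and linear, which per the labels the authors computed with MAS5 (version not stated), scaled per array and neither filtered, log-transformed nor centred per gene. The filter and the GeneSpring normalization of the study's methods were not found in these values.

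Here, without the 66 control probe sets, each array was brought to a common median (factors 0.948 to 1.06), signals under 20 were set to 20 (13.2 to 15.5% of values per array) and log2 was taken. Of the remaining probe sets, 9783 had a stage mean above 20, the signal filter of the methods, and were tested, and 2639 were left out. One fit in limma 3.58.1 (R 4.3.3, tables read with the data.table package, version 1.17.8) with a mean-dependent prior gave the F test over the stages and 6 contrasts, adjusted by the Benjamini-Hochberg method over all 9783, at a threshold of 0.05. A fold is 2 to the power of the difference of log2 means, and a group at the floor on all arrays gives a bound ("at least"). Differences within arrays were tested by exact permutation. Figures were drawn with matplotlib 3.10.9.

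Symbols came from the platform annotation, updated through RefSeq (GRCm38.p6): 10833 probe sets had 1 symbol, 396 several, and 1193 were not listed there. Promoter sequences came from RefSeq. Besides the members, the text names the 5 nearest profiles of each gene. From some of the 14 gene lists it names up to 4 called genes with the smallest F test p, each by its brightest probe set. By that rule it names none from the lists of other immunoglobulin genes, basal epithelium, T cells, macrophages, adipocytes, skeletal muscle and endothelium. Most other genes named are marked or complete a count. The genes, lists and tests were chosen with earlier results of these data known. The fitting code was tested on simulated data. The limma results were also computed without rescaling, with quantile normalization, without the floor or with 50 in its place, without the filter, without the trend of the prior, by ordinary analysis of variance, with a block for the replicate number, and without each array in turn. The within-array differences were repeated under those of these settings that change their values or arrays (quantile normalization, the floor, arrays left out), and the nearest profiles under none.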

Additional observations from a re-analysis of the deposited data

How the results depend on the processing

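The 24 results on Igha 100583_at, Jchain and Pigr (F tests, contrasts and within-array differences) were recomputed under the alternatives, which gave 417 values (the 3 within-array differences only under quantile normalization, no floor, a floor of 50, an added constant of 16 and each array left out), of which 385 kept their call and direction; none changed sign with a call. An added constant of 16 and the list counts under all alternatives were chosen after seeing the data. The cause of the changes was not tested, and alternatives that leave out arrays or tested probe sets lower the number of either.

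Pigr at involution against puberty lost its call with values as deposited (log2 1.297, limma adjusted p = 0.0567), quantile normalization (1.29, 0.0536), a floor of 50 (1.39, 0.127), no filter (1.39, 0.142), no trend (1.39, 0.0577) and plain analysis of variance (1.39, 0.168). Pigr at pregnancy against puberty lost it with plain analysis of variance (2.194, 0.0522). Igha at pregnancy against puberty gained a call with quantile normalization (1.45, 0.0464), no floor (1.448, 0.0398) and an added constant of 16 (1.181, 0.0368).

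With each array left out in turn, Igha at pregnancy against puberty ranged over 1.064 to 1.852, Jchain at lactation against puberty over 0.36 to 1.125, and Pigr over 1.946 to 2.442 at pregnancy against puberty, -1.459 to -0.15 at involution against pregnancy and 0.735 to 2.044 at involution against puberty. The adjusted p of the within-array difference of Igha and Jchain ranged over 0.0317 to 0.0952 (exact permutation test). With an array left out of a pair, the lone array was assumed to vary like the other stages.

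Same-numbered arrays did not deviate together (12 pairs, r of -0.153 to 0.049, 0 above 0.1), so the numbers do not pair the samples. With the replicate number as a block, Jchain at lactation against puberty gained a call (1.042, limma adjusted p = 0.0398) and Pigr at involution against puberty lost it (1.433, 0.11), and the probe sets called were 543 at pregnancy against puberty, 335 at involution against pregnancy and 354 at involution against puberty.

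Counts of called probe sets moved as follows. Involution against puberty (732) gave 480 with a floor of 50, 454 with no filter, 317 with plain analysis of variance and 245 to 798 with arrays left out. Involution against pregnancy (697) gave 420 with no filter, 322 with plain analysis of variance and 166 to 600 with arrays left out. Pregnancy against puberty (1118) gave 617 with plain analysis of variance and 288 to 1104 with arrays left out, and lactation against pregnancy (4035) gave 2573 to 4089. Precision was limited by the 2 or 3 arrays a stage, and below the floor signals have only a bound.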

Other observations

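The other immunoglobulin genes on the array followed Igha only in part. Apart from the Igha probe sets, 73 probe sets carried immunoglobulin symbols alone, a set drawn up after values were seen, and 63 were tested. At involution against lactation, 33 were called higher and 6 lower (22.1% and 23% of all tested probe sets), with 19 higher when lactation replicate 1 or involution replicate 1 was left out. At lactation against puberty, 10 were higher and 7 lower (26.1% and 21.8% of all), with 11 lower without lactation replicate 2. The highest stage mean fell at involution for 46 of the 63, at lactation for 12, at puberty for 4 and at pregnancy for 1. Kappa light chain probe sets had 20 higher and 4 lower of 35 at involution against lactation, with a median log2 difference of 1.60. Many of these are _f_at probe sets, which can read the same RNA, so they are not separate readings. Among the 11 without a call was 93086_at, annotated to several kappa symbols with Igkc among them (log2 -0.01), with signals of 3526.4 to 11900.5 over the arrays. The 4 probe sets grouped as lambda by symbol, which include those of the lambda-like gene Igll1, had 1 higher and 2 lower. The higher one was 93638_s_at, annotated to Iglc1 and Iglv1, with both lactation arrays under the floor (log2 at least 3.96, limma adjusted p = 0.000102). The lower ones were Igll1 99428_at (log2 -1.71) and Iglc1 93639_r_at (log2 -1.09), whose signals ran only from 12.9 to 61.9.

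Probe sets of a single gene differed here too. Ighm 99420_at, nearest to Igha, had 498.4 and 527.6 at lactation, against 8 to 17.4 at puberty, whereas Ighm 93584_at had 41.6 and 112 at lactation, against 1039.1 to 1206.3 at puberty (log2 difference -4.06, limma adjusted p = 5.36e-05). Ighv14-2 is a heavy chain variable segment, and 2 probe sets of that name were designed from the same sequence record as Igha 100583_at. They fell from puberty to lactation, where Igha 100583_at rose. At involution against lactation both went up, as Igha did, with log2 differences of at least 2.415 for 92740_at (limma adjusted p = 0.00593) and 1.434 for 92741_g_at (limma adjusted p = 0.119). Ighv14-2 92740_at gave 614.5, 537.7 and 280.1 at puberty, 134.2 and 76.3 at pregnancy, 1.3 and 16.4 at lactation, and 177.2 and 64.2 at involution (limma F test, adjusted p = 0.000649). Its neighbour 92741_g_at gave 300.1, 331.6 and 177.8, then 111.6 and 84.2, then 7.3 and 26.1, then 145.8 and 26.1 at the same stages (limma F test, adjusted p = 0.00831).

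Of 8 tested genes listed with other immunoglobulin receptors, 5 were higher at involution than at lactation (22.1% of all probe sets; 3 with a floor of 50). The 5 were Fcgr2b, Fcer2a, Fcer1g, the signalling chain of several of these receptors, Fcgr1, a receptor for IgG, and B2m, a chain of the neonatal Fc receptor and of class I molecules. Fcgr2b, the inhibitory receptor for IgG, gave 153.2 and 141.1 at involution, against 4.4 and 23.8 at lactation (log2 2.75, limma adjusted p = 0.000129). Fcer2a, the low-affinity IgE receptor of B cells, gave 199.4 and 211.8 at involution, against 16.3 and 51.8 at lactation (log2 2.67, limma adjusted p = 0.00231).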
